A study of Mus musculus with 12 samples.

Results

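Chemokine ligands and chemokine receptors were examined for H3K27me3 at their promoters in immortalized mouse embryonic fibroblasts (iMEFs) with and without Ezh2. Of 21281 autosomal protein-coding genes of the mm9 annotation, 53 were chosen by their symbols alone: 36 ligands (CC, CXC and CX3C chemokines) and 17 receptors. The X-linked receptor gene Cxcr3 was left out. H3K27me3, the trimethyl mark on lysine 27 of histone H3, was mapped by ChIP-seq (chromatin immunoprecipitation and sequencing), and each of 10 libraries came with a list of called peaks. In what follows, the promoter is the 5001-bp window centred on the annotated 5' end of the gene, the measure is the number of its bases under peaks, and a promoter with at least 1 such base is said to have a peak.

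The cells were 1 limiting-dilution clone, C2, of c-Myc transformed Ezh2 flox/Δ;ROSA26-CreERT2 iMEFs, in which 4-hydroxytamoxifen removes Ezh2, and all libraries share the c-Myc transgene and this clone. Experiment 2 held 1 library of an Ezh1 rescue and 1 of an Ezh2 rescue, in which a retroviral Flag-tagged enzyme was expressed before the deletion, with 2 Ezh2 -/- (KO) and 2 wild-type libraries. The wild-type cells are labelled Ezh2 WT/WT. Experiment 1 held 2 KO and 2 wild-type libraries. The antibody was the 7b11 clone in experiment 2 and an Active Motif antibody in experiment 1, and reads came from SOLiD and Illumina instruments. No comparison pools both experiments. The study calls its replicates biological, and the labels do not say whether they were separate cultures. The p-values come from reassigning these libraries between the groups, and do not measure the spread between them.

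Ezh2 and its close relative Ezh1 are the catalytic subunits of Polycomb repressive complex 2, which writes H3K27me3, a mark found at silenced promoters. Chemokines are small secreted proteins that guide migrating cells. Their receptors are G protein-coupled receptors, most of them restricted to leukocytes, whereas fibroblasts are known to secrete several of the ligands. Most inflammatory chemokine genes arose by tandem duplication and lie in clusters.

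Promoters of 4 members are shown because they differ in CG content and in the mark. Each runs from 250 bases before to 50 bases from the 5' end of the gene, in mm9 and on the strand of the gene, with CG dinucleotides in capitals. Cxcl14 (chr13:56397863-56398162, minus strand) was the ligand and Ccr7 (chr11:99016342-99016641, minus strand) the receptor with the most bases under peaks, averaged over the 4 wild-type libraries. Cxcl12 (chr6:117118303-117118602, plus strand) is rich in CG but had no wild-type promoter peak. Ccl5 (chr11:83343971-83344270, minus strand) was 1 of the ligands with the fewest CG dinucleotides, level with Ccl7, among those with no peak in any library.
Cxcl14: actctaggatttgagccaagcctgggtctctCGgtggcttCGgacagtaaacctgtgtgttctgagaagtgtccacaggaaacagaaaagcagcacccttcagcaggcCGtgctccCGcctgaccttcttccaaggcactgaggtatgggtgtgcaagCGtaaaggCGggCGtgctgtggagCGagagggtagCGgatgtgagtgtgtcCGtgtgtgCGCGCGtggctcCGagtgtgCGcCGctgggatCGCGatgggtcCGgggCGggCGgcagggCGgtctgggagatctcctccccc
Ccr7: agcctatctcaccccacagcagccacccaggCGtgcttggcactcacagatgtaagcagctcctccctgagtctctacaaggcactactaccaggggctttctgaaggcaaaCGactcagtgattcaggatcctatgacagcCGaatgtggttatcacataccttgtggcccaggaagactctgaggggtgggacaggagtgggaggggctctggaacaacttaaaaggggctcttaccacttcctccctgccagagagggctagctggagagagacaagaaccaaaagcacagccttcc
Cxcl12: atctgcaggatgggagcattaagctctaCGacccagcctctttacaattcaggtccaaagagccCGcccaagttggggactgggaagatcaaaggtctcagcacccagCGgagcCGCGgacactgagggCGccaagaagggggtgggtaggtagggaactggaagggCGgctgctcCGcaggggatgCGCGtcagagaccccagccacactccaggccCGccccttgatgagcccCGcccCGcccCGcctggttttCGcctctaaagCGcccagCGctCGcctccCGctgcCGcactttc
Ccl5: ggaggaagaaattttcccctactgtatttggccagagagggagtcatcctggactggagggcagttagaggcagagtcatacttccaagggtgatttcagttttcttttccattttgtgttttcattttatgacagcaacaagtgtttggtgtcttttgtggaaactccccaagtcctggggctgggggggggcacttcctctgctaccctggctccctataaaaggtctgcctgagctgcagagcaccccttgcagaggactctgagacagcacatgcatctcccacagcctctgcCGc
The Cxcl14 promoter holds 22 CG dinucleotides and the Cxcl12 promoter 20, against 3 in Ccr7 and 1 in Ccl5. Ccl5 also carries a TATA motif, read as TATAAA.

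Across the libraries, peak lists of experiment 2 covered 256 Mb of the genome after Ezh1 rescue, 80.6 Mb after Ezh2 rescue, 0.0589 and 0.481 Mb in the KO and 14.9 and 11.3 Mb in the wild type. In experiment 1 they covered 24.3 and 56.7 Mb in the KO, against 141 and 177 Mb in the wild type. Chromosome 5 held 21.2% and 21.7% of the KO coverage of experiment 1, against 6.66% and 6.33% in its wild type. The lists hold positions only, so the height of a peak and the depth behind it are unknown. In bulk chromatin, fewer cells with the mark and less mark per cell cannot be told apart. The authors scaled the reads of the KO and of the Ezh1 rescue down by coefficients based on the DNA recovered in the ChIP, and whether the deposited lists carry this scaling is not stated. No promoter of 10 fibroblast marker genes had a peak in both wild-type libraries of experiment 1, against 20.7% of all genes. Of 10 leukocyte marker promoters 7 had one, among them Cd3e, Cd4, Cd8a, Itgam, Itgax and Ptprc, but not Cd14, Cd68 or Emr1. So did 1 of 4 endothelial and 1 of 4 epithelial marker promoters. The fibroblast marker Vim had 1698 and 1275 bp in the KO libraries of experiment 1, against 0 bp in both wild-type libraries.

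In the wild type of experiment 1, H3K27me3 peaks lay at 7 of the 36 ligand promoters (19.4%) and at 9 of the 17 receptor promoters (52.9%) in both libraries. Over all genes the share was 20.7%, and over the 53 members it was 30.2%. The ligand minus receptor share was thus -33.5 percentage points, and in single libraries -39.4 points in the first wild-type library and -25.2 points in the second. The sign was the same in single libraries of experiment 2. It was -31.4 points after Ezh1 rescue, -10.6 points after Ezh2 rescue and -12.4 points in each wild-type library. A peak in both wild-type libraries of experiment 2 was found at 5.56% of ligand and 5.88% of receptor promoters, so by this call the classes were nearly level. The KO libraries of experiment 1 gave -12.1 and -0.327 points. Genes are not replicates, so this difference was described and not tested. With 5000 bp on either side the difference was -22.4 points and the ligand count 11, and with peaks of at least 1000 bp the ligand count was 4.

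**Figure D1:**
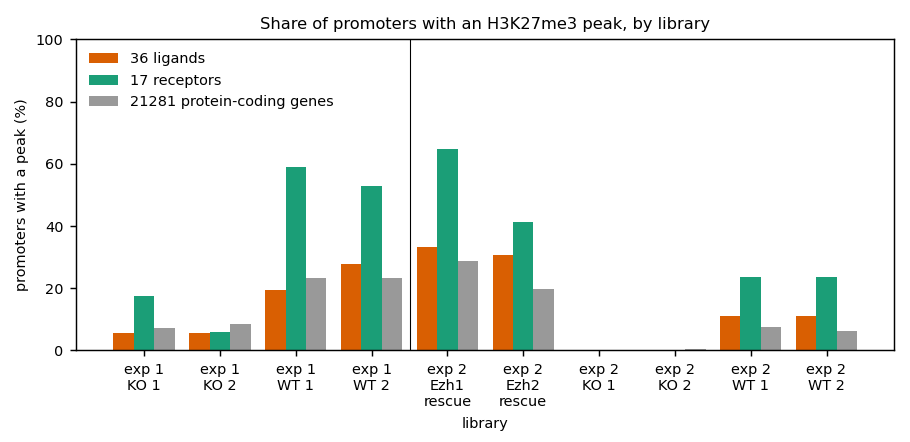
Share of promoters with at least 1 base under an H3K27me3 peak (vertical axis, %) in each of the 10 libraries (horizontal axis), for 36 ligands (orange), 17 receptors (green) and 21281 autosomal protein-coding genes (grey). Receptors stood above ligands in all 4 wild-type and both rescue libraries, and no member had a peak in either KO library of experiment 2.

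The length of promoter covered showed the same order. Ligands averaged 359 and 428 bp under peaks in the 2 wild-type libraries of experiment 1, against 1533 and 1677 bp in receptors. Relative to the mean of all genes in the same library, ligands were at 0.704 and 0.757 and receptors at 3.01 and 2.97. After Ezh1 rescue the ratios were 1.12 for ligands and 3.22 for receptors, and after Ezh2 rescue 1.01 for ligands and 2.96 for receptors. In the wild type of experiment 2 they were 1.00 and 0.895 for ligands, against 5.15 and 5.12 for receptors. Cxcr7 alone held 2755 of the 6005 and 2905 of the 5105 receptor bases there, against 264 and 242 bp in the wild type of experiment 1.

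In experiment 1, bases under peaks summed over the 53 promoters were 6083 and 6934 bp in the KO libraries, against 38981 and 43904 bp in the wild-type libraries. The difference was -34934 bp, with means of 6509 ± 602 bp in the KO and 41443 ± 3481 bp in the wild type (SD, n = 2 each). The groups did not overlap, but a two-sided exact permutation test of 2 against 2 libraries cannot give a p under 0.33, the value obtained here. The KO total was 15.7% of the wild-type total, close to the 13.6% found over all genes. Of promoters with a peak in a wild-type library of experiment 1, only that of Cxcl14 had KO bases, 1374 and 2146 bp. All other KO bases lay at Ccl1, Ccr1, Ccr2 and Ccr3, which had 0 bp in both wild-type libraries.

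In experiment 1, 16 of the 53 members (30.2%) had fewer bases under peaks in both KO libraries than in both wild-type libraries, against a background of 20.2% over all genes. These were 7 ligands and 9 receptors. Only genes with a peak in both wild-type libraries can meet this call, and these were all the members so marked. The excess over the background therefore restates the wild-type share of 30.2%, against 20.7% of all genes. More bases in both KO libraries were found for 2 members (3.77%), Ccr2 and, at a 5' end 126 kb from its coding start, Ccl1, against a background of 3.91%. Of the 16 members with a peak in both wild-type libraries, 15 (93.8%) had no KO promoter peak, against 92.3% of all genes so marked. The exception was Cxcl14.

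Both classes had less coverage in the KO. Ligands held 2409 and 6435 bp in the KO libraries of experiment 1, against 12918 and 15394 bp in the wild type, that is 17.0% and 45.5% of the wild-type mean. Receptors held 3674 and 499 bp in the KO libraries, against 26063 and 28510 bp in the wild type, or 13.5% and 1.83% of the wild-type mean. These receptor KO bases all lay at Ccr1, Ccr2 and Ccr3, promoters with no wild-type peak. The ligand share of wild-type coverage was above the receptor share in each KO library, by little in the first and widely in the second. The annotated 5' end of Ccl1, remote from its coding start, held 1035 of the 2409 bp and 4289 of the 6435 bp. Without Ccl1 the ligands were at 9.71% in the first KO library, under the receptors, and at 15.2% in the second, with all of their KO bases at Cxcl14.

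**Figure D2:**
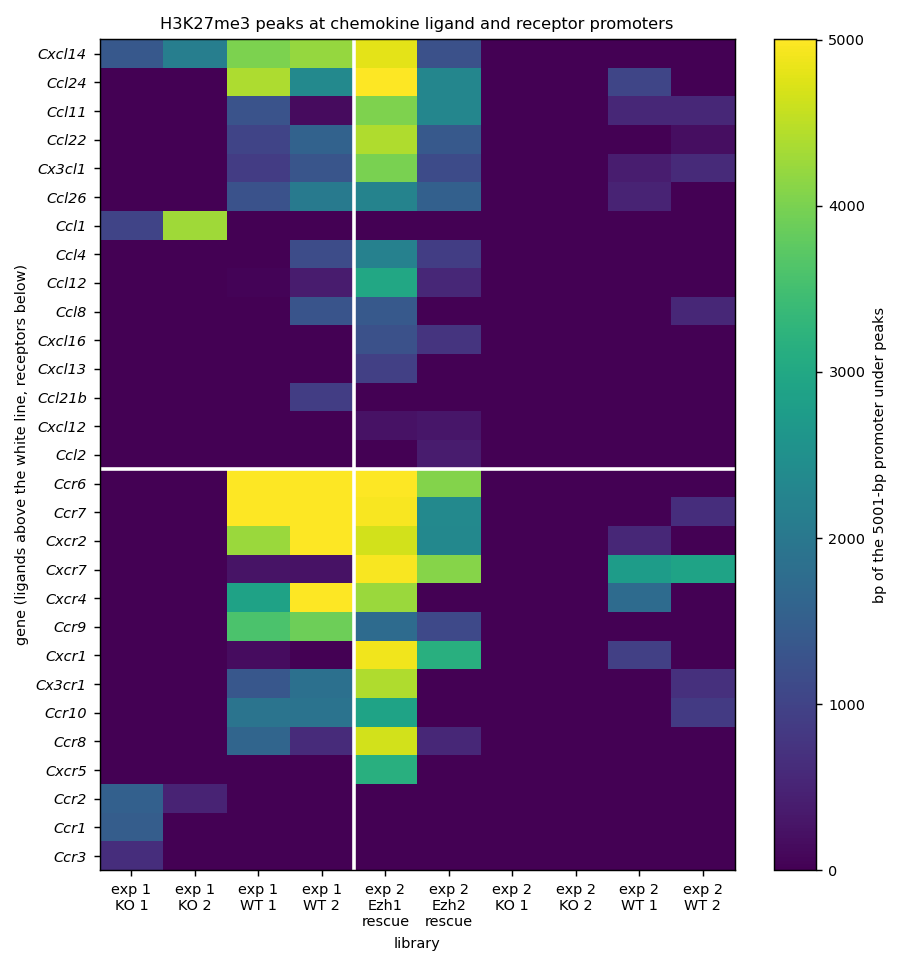
Bases of the 5001-bp promoter under H3K27me3 peaks (colour, 0 to 5001 bp) for the 15 ligands (above the horizontal white line) and 14 receptors (below it) with a peak in any library, by library (columns, with experiment 1 left of the vertical white line). Ccr6, Ccr7 and Cxcr2 were among the most covered receptors in the wild type of experiment 1, and Ccl1, Ccr1, Ccr2 and Ccr3 had KO peaks and no wild-type peak.

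Among the receptors, Ccr6 and Ccr7 had their whole promoter under a peak in both wild-type libraries of experiment 1. Ccr6, the receptor of Ccl20, had no base under peaks in either KO library of experiment 1, against 5001 bp, the whole window, in both wild-type libraries. Experiment 2 gave 5001 bp after Ezh1 rescue, 4077 bp after Ezh2 rescue and 0 bp in both KO and both wild-type libraries. The peak over its promoter was 23206 and 30956 bp wide in the wild type of experiment 1 and 35700 bp in the Ezh1 rescue. These domains ran through the gene, and covered 89.8% and 93.0% of the Ccr6 gene body in the wild type of experiment 1, 100% after Ezh1 rescue and 62.5% after Ezh2 rescue. In the wild type of experiment 2 the gene body was covered to 8.61% and 11.2% although the window at its annotated 5' end had no peak. At the last coding start of Ccr6, 8.87 kb away, the window had 5001 bp after Ezh1 rescue, 4201 bp after Ezh2 rescue, 0 bp in both KO libraries of either experiment, 0 and 550 bp in the wild type of experiment 2, and 5001 bp in both wild-type libraries of experiment 1.

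Ccr7 guides lymphocytes and dendritic cells to lymph nodes. Its promoter had 0 bp in both KO libraries of experiment 1, against 5001 bp in both wild-type libraries, where a single peak was 19340 and 19544 bp wide. Its values in experiment 2 were 4960 bp after Ezh1 rescue, 2360 bp after Ezh2 rescue, 0 bp in both KO libraries, and 0 and 650 bp in the wild type. In the Ezh2 rescue the bases lay on the gene side of the 5' end, with the peak starting 141 bp inside the gene.

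Cxcr2 is the main neutrophil receptor for the CXC ligands of the Cxcl1 and Cxcl2 type. It had 0 bp in both KO libraries of experiment 1, against 4245 and 5001 bp in the wild type. The libraries of experiment 2 gave 4651 bp after Ezh1 rescue, 2338 bp after Ezh2 rescue, 0 bp in both KO libraries, and 550 and 0 bp in the wild type. Its paralog Cxcr1, which lies beside it on chromosome 1, was covered over 4901 and 3150 bp in the Ezh1 and Ezh2 rescues but over only 171 and 0 bp in the wild type of experiment 1. Cxcr1 and Cxcr2 therefore differed in experiment 1 and were both covered in the rescues.

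Cxcl12 and its receptors Cxcr4 and Cxcr7 form an axis that holds stem cells in their niche, and Cxcr7 acts mainly as a scavenger of the ligand. Cxcr4 had 0 bp in both KO libraries of experiment 1, against 2888 and 5001 bp in the wild type. For this promoter, experiment 2 gave 4251 bp after Ezh1 rescue, 0 bp after Ezh2 rescue, 0 bp in both KO libraries, and 1750 and 0 bp in the wild type. Cxcr4 thus had promoter peaks in the Ezh1 rescue, 1300 and 3600 bp wide, and none in the Ezh2 rescue.

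Cxcr7 had different wild-type values in the 2 experiments. It had 0 bp in both KO libraries of experiment 1, against only 264 and 242 bp in the wild type, at the upstream edge of the window. In experiment 2 it had 4951 bp after Ezh1 rescue, 4101 bp after Ezh2 rescue, 0 bp in both KO libraries, and 2755 and 2905 bp in the wild type, the largest wild-type values of any member in that experiment. The antibody, the sequencing platform and the experiment cannot be told apart here. Within 50 kb on either side of its 5' end, Cxcr7 had 0 bp in both KO libraries of experiment 1, against 28088 and 30039 bp in the wild type, so the surroundings of the gene were marked in that experiment while its promoter was nearly free of peaks.

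Cxcl12 itself had no promoter peak in any KO or wild-type library, and 248 bp after Ezh1 rescue and 298 bp after Ezh2 rescue. The Ezh1 rescue peak was 43050 bp wide and stopped 2253 bp upstream of the gene. Within 50 kb on either side of the 5' end, Cxcl12 had 0 bp in both KO libraries of experiment 1, against 28343 and 36188 bp in the wild type. In the Ezh1 rescue a broad upstream domain thus reached the outer edge of the promoter window and not the 5' end of this CG-rich gene.

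The other receptors with a peak in both wild-type libraries of experiment 1 were Ccr8, Ccr9, Ccr10 and Cx3cr1. Cx3cr1, the fractalkine receptor of monocytes and microglia, had 0 bp in both KO libraries, against 1352 and 1849 bp in the wild type. Experiment 2 gave 4401 bp after Ezh1 rescue, 0 bp after Ezh2 rescue, 0 bp in both KO libraries, and 0 and 700 bp in the wild type. Ccr10, a receptor of skin-homing T cells, likewise had 0 bp in both KO libraries of experiment 1, against 1920 and 1902 bp in the wild type. Its values in experiment 2 were 2900 bp after Ezh1 rescue, 0 bp after Ezh2 rescue, 0 bp in both KO libraries, and 0 and 850 bp in the wild type. Like Cxcr4, both had a promoter peak in the Ezh1 and none in the Ezh2 rescue. Within 50 kb on either side of the 5' end the Ezh2 rescue did hold peaks. They covered 15601 bp at Cx3cr1, 3850 bp at Ccr10 and 5250 bp at Cxcr4.

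Ccr8, the receptor of Ccl1 on Th2 and regulatory T cells, had 0 bp in both KO libraries of experiment 1, against 1635 and 606 bp in the wild type. It had 4651 bp after Ezh1 rescue and 550 bp after Ezh2 rescue, and none in the KO and wild type of experiment 2. Ccr9, the gut-homing receptor of Ccl25, had 0 bp in both KO libraries of experiment 1, against 3586 and 3907 bp in the wild type. It had 1744 bp after Ezh1 rescue and 1100 bp after Ezh2 rescue, and none in the KO and wild type of experiment 2. The annotated 5' end of Ccr9 lies 446 bp from that of Slc6a20a and 88.8 kb before the start of its last coding transcript, and the promoter of that transcript had no peak in any library. The Ccr9 values therefore belong to a shared and distant 5' end.

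Among the ligands, Cxcl14 had the highest mean coverage in the wild type of experiment 1, although Ccl24 was above it in the first library. Cxcl14 is a chemokine made by epithelia in the resting state, and it was the single member with promoter peaks in both KO and both wild-type libraries of experiment 1. Its promoter had 1374 and 2146 bp under peaks in the KO, against 4019 and 4212 bp in the wild type. The libraries of experiment 2 gave 4801 bp after Ezh1 rescue, 1239 bp after Ezh2 rescue and 0 bp in both KO and both wild-type libraries. In the KO of experiment 1 a peak lay 356 and 266 bp upstream of the 5' end, with a further peak of 603 bp on the gene side in the second library. The 50-kb neighbourhood held 1374 and 2146 bp in the KO libraries, against 55737 and 55160 bp in the wild type.

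The eotaxins Ccl11, Ccl24 and Ccl26 attract eosinophils through Ccr3, a role known for Ccl26 from human. Ccl24 had 0 bp in both KO libraries of experiment 1, against 4394 and 2346 bp in the wild type. For this promoter, experiment 2 gave 5001 bp after Ezh1 rescue, 2300 bp after Ezh2 rescue, 0 bp in both KO libraries, and 1050 and 0 bp in the wild type. Its neighbour Ccl26 had 0 bp in both KO libraries of experiment 1, against 1256 and 2051 bp in the wild type. Both genes lie on chromosome 5, on which KO coverage was concentrated, and neither had a KO promoter peak.

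In experiment 2, Ccl26 had 2239 bp after Ezh1 rescue, 1539 bp after Ezh2 rescue, 0 bp in both KO libraries, and 489 and 0 bp in the wild type. Ccl11 had 0 bp in both KO libraries of experiment 1, against 1285 and 156 bp in the wild type. In experiment 2 it had 4026 bp after Ezh1 rescue, 2300 bp after Ezh2 rescue, 0 bp in both KO libraries, and 550 bp in each wild-type library. Its wild-type peaks were narrow and, between the libraries of either experiment, did not lie at the same place.

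Ccl22 attracts Th2 and regulatory T cells through Ccr4, and Cx3cl1 (fractalkine) is a membrane-bound ligand of Cx3cr1. Ccl22 had 0 bp in both KO libraries of experiment 1, against 1024 and 1563 bp in the wild type. Cx3cl1 had 0 bp in both KO libraries of experiment 1, against 893 and 1324 bp in the wild type. The groups did not overlap for either ligand.

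In experiment 2, Ccl22 had 4401 bp after Ezh1 rescue, 1400 bp after Ezh2 rescue, 0 bp in both KO libraries, and 0 and 190 bp in the wild type. Cx3cl1 had 3992 bp after Ezh1 rescue, 1142 bp after Ezh2 rescue, 0 bp in both KO libraries, and 392 and 600 bp in the wild type. Cx3cl1 and its receptor Cx3cr1 were both without KO peaks in experiment 1, but in the Ezh2 rescue the ligand had a promoter peak and the receptor had none.

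Of the remaining ligands, Ccl12, a Ccr2 ligand, had 0 bp in both KO libraries of experiment 1, against 47 and 387 bp in the wild type, the smallest mean of the 16 members. Ccl2, the monocyte chemoattractant best known from fibroblasts, had no peak in any KO or wild-type library or after Ezh1 rescue, and 373 bp after Ezh2 rescue, where the peak began 2128 bp from the 5' end on the gene side. Ccl4, Ccl8 and Ccl21b had between 906 and 1294 bp in the second wild-type library of experiment 1 and none in the first. Cxcl13 and Cxcl16 had a peak in a rescue library and in no KO or wild-type library, as did the receptor Cxcr5, a B-cell receptor of Cxcl13, with 3154 bp in the Ezh1 rescue. The other 21 ligands, among them Ccl5, Ccl7, Ccl20, Cxcl1, Cxcl2, Cxcl9 and Cxcl10, had no promoter peak in any of the 10 libraries, and nor had the receptors Ccr4 and Cxcr6. Ccl21a, Ccl21b and Ccl21c, and likewise Ccl27a and Ccl27b, are near-identical copies to which reads are hard to assign.

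KO promoter peaks were rare. In experiment 1, 5 members (9.43%) had a peak in at least 1 KO library, against 11% of all genes, and 3 members had one in both (5.66%), against 4.65%. Of the 33 members with no wild-type peak, 2 (6.06%) had a peak in both KO libraries, Ccl1 and Ccr2, against 4.97% of all such genes. These shares lay near the background.

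Ccr2 is the monocyte receptor of Ccl2. It had 1543 and 499 bp in the KO libraries of experiment 1, against 0 bp in both wild-type libraries, about 1 kb upstream of its 5' end. Ccr1 and Ccr3, its neighbours on chromosome 9, had 1474 and 657 bp in the first KO library and 0 bp in the second, against 0 bp in both wild-type libraries. None of these receptors had a promoter peak in experiment 2.

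Ccl1, the ligand of Ccr8, had 1035 and 4289 bp in the KO libraries of experiment 1, against 0 bp in both wild-type libraries, at its annotated 5' end. That end belongs to a non-coding transcript that begins 126 kb before the coding ones. At the start of the coding transcripts the direction was turned round, with 0 bp in both KO libraries, against 2552 and 3556 bp in the wild type. In experiment 2 the coding promoter had 4564 bp after Ezh1 rescue, 3814 bp after Ezh2 rescue, 0 bp in both KO libraries, and 550 and 0 bp in the wild type. This window was chosen after the values were seen. With the last coding start used for every member, 8 ligands and 8 receptors had a peak in both wild-type libraries of experiment 1, and the ligand minus receptor share was -24.8 points.

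The genes next to each other in clusters shared these patterns only in part. In the cluster on chromosome 11 that runs 275 kb from Ccl2 to the distal end of Ccl1 and holds 6 ligands, peaks covered 4.03% and 15.5% of the sequence in the KO libraries of experiment 1, against 5.97% and 12.1% in the wild type. The totals overlapped, but the positions were mostly separate. The KO peaks began 192 kb from the Ccl2 start in the first library and 188 kb in the second and reached the annotated 5' end of Ccl1, whereas wild-type peaks lay between 22.6 and 242 kb in the first library and between 16.4 and 206 kb in the second. Of the KO bases in the cluster, 5.02% and 1.54% lay under a wild-type peak of either library, against 5.88% and 7.69% over the autosomes. In experiment 2, peaks covered 30.0% of this cluster after Ezh1 rescue, 8.27% after Ezh2 rescue, 0% in both KO libraries and 1.05% in each wild-type library.

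**Figure D3:**
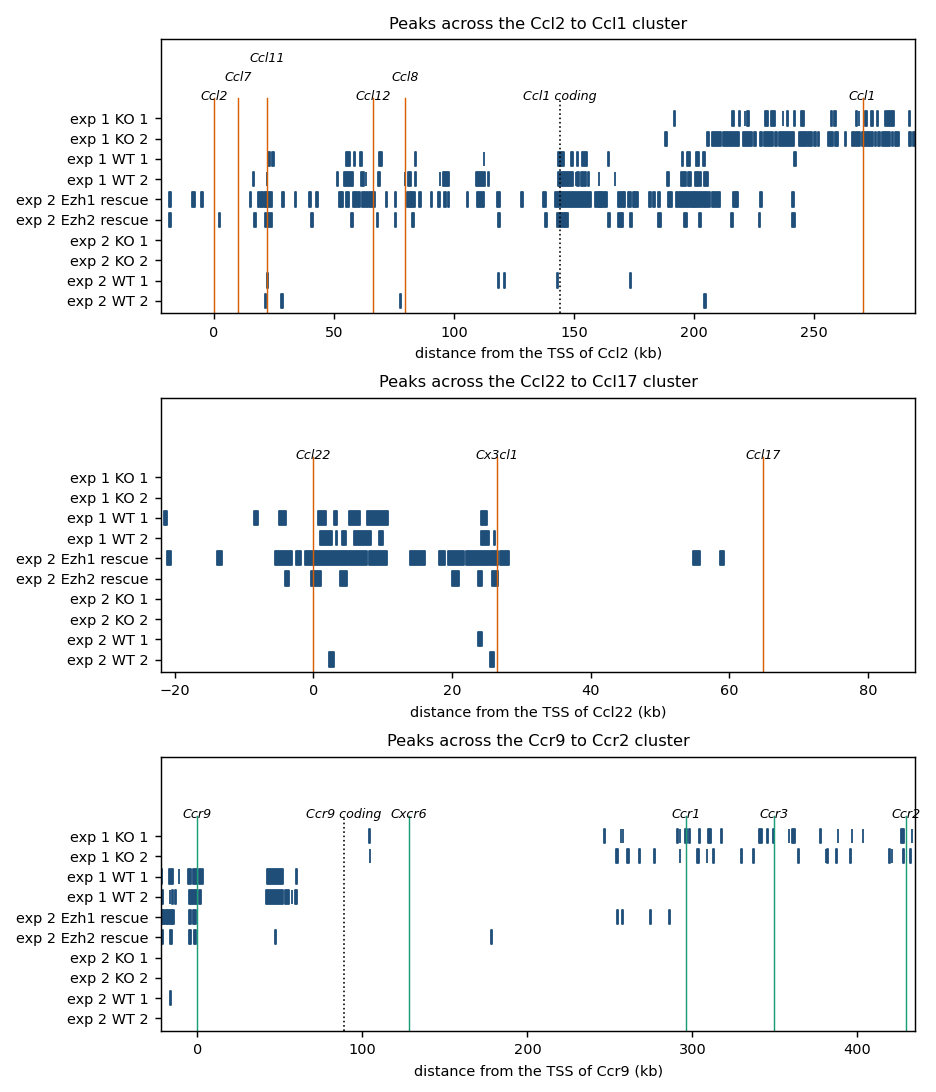
Peaks (blue blocks) in each library (rows) across 3 chemokine clusters, by distance in kb from the first 5' end of the cluster. Orange lines mark 5' ends of ligands, green lines those of receptors and dotted lines the last coding start of Ccl1 and Ccr9. In the Ccl2 to Ccl1 cluster KO peaks of experiment 1 lay from 188 kb on, in the Ccl22 to Ccl17 cluster the KO had none, and around Ccr1, Ccr2 and Ccr3 the peaks of experiment 1 came from the KO libraries alone.

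The same held in the receptor cluster on chromosome 9, taken over the 434 kb from Ccr9 to Ccr2. Peaks covered 3.5% and 2.5% of it in the KO libraries of experiment 1, against 3.21% and 4.20% in the wild type, and 0% of the KO bases lay under a wild-type peak. Across the 138 kb from Ccr1 to Ccr2, KO peaks covered 12865 and 6234 bp, against 0 bp in both wild-type libraries and 0 bp in all 6 libraries of experiment 2. The 2 KO libraries shared 722 bp there, which is 5.61% of the bases of the first and 11.6% of those of the second, and over the autosomes they shared 52.6% and 22.5%. The KO peaks between Ccr1 and Ccr2 were thus in the same stretch but mostly not at the same bases.

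In the cluster of Ccl22, Cx3cl1 and Ccl17 on chromosome 8, peaks covered 0% in both KO libraries of experiment 1, against 9.98% and 9.59% in the wild type. In experiment 2 they covered 35.3% after Ezh1 rescue, 6.66% after Ezh2 rescue, 0% in both KO libraries, and 0.859% and 1.72% in the wild type. Ccl17, at the far end, had no promoter peak in any library. A pair of other ligand clusters had few peaks. From Ccl5 to Ccl4 on chromosome 11 peaks covered 0% in both KO libraries, against 0.457% and 1.06% in the wild type of experiment 1, and from Cxcl5 to Cxcl2 on chromosome 5 the single peak was one of 150 bp in the second KO library.

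In experiment 2, no member had a promoter peak in either KO library, against 0.399% of all genes with one in at least 1 KO library. The totals were 0 bp in both KO libraries, against 8486 and 6995 bp in the wild type, a difference of -7741 bp (two-sided exact permutation test, p = 0.33, n = 2 each). Wild-type peaks were scarce as well. In both libraries 3 members had one (5.66%), Ccl11, Cx3cl1 and Cxcr7, against 3.26% of all genes, and 8 members had one in each library taken alone. Those 3 members (5.66%) also had fewer bases in both KO than in both wild-type libraries, against 3.17%. This call, too, can be met only with a peak in both wild-type libraries. Only at Cxcr7 did peaks of the wild-type libraries overlap, while at Ccl11 and Cx3cl1 they lay apart. In at least 1 wild-type library 13 members had a peak (24.5%), 6 ligands and 7 receptors, against 10.5%.

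In the rescues, the Ezh1 library had a peak at 12 of 36 ligand promoters and 11 of 17 receptor promoters, 43.4% of the members against 28.9% of all genes. The Ezh2 library had a peak at 11 ligand and 7 receptor promoters, 34.0% against 19.6% of all genes. Of the 16 members with a peak in both wild-type libraries of experiment 1, the Ezh1 rescue marked all 16, against 91.3% of all genes so marked, and the Ezh2 rescue marked 13 (81.2%), against 72.0%. The 3 members not marked in the Ezh2 rescue were the receptors Ccr10, Cx3cr1 and Cxcr4. Each rescue had 1 library among those analysed here, so no replicate check was possible. Within 1000 bp of the 5' end the Ezh2 rescue count was 11, and with peaks of at least 1000 bp it was 10, against 18.

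**Figure D4:**
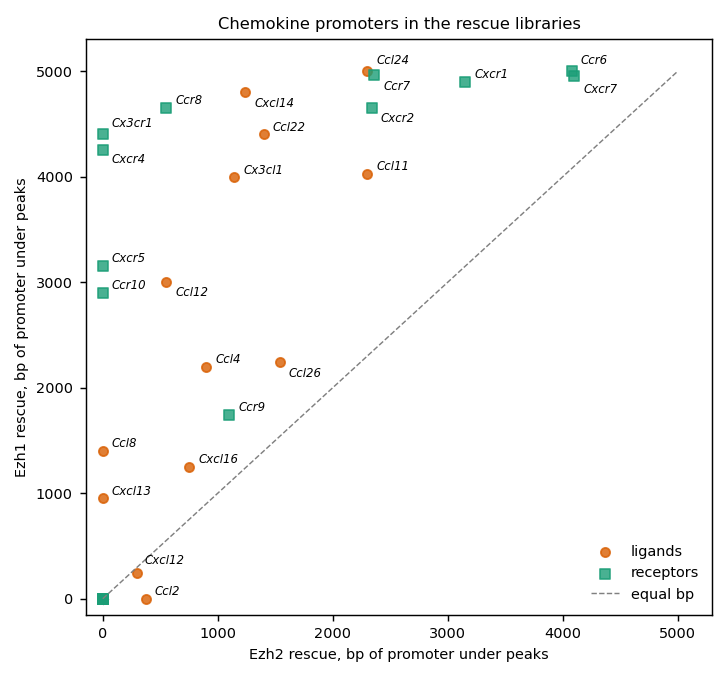
Bases of the promoter under peaks in the Ezh1 rescue (vertical axis, bp) against the Ezh2 rescue (horizontal axis, bp), for ligands (orange circles) and receptors (green squares), with members that have a peak in either library named and 29 members with none at the origin. Of the 17 promoters with a peak in both, 16 lay above the dashed line of equal bases, the exception being Cxcl12.

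More promoter bases lay under peaks in the Ezh1 rescue, a measure of extent that holds no peak height. It does not show that more of the mark was present after Ezh1 than after Ezh2 rescue. Of 17 members with a peak in both rescue libraries, 16 had more bases in the Ezh1 rescue, with medians of 4401 bp after Ezh1 rescue and 1400 bp after Ezh2 rescue. Over all genes the medians were 4151 bp after Ezh1 and 1598 bp after Ezh2 rescue. The ratio of the summed bases, Ezh1 over Ezh2 rescue, was 2.60 over the members, 2.62 for ligands and 2.58 for receptors, against 2.37 over all genes. Total coverage of the genome differed in the same direction, and its part in the promoter values was not tested.

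Of 23 members with a peak in the Ezh1 rescue, 6 (26.1%) had none in the Ezh2 rescue, against 37.0% of all genes with an Ezh1 rescue peak. These were 2 of 12 ligands, Ccl8 and Cxcl13, and 4 of 11 receptors, Ccr10, Cx3cr1, Cxcr4 and Cxcr5. The 4 receptors had between 2900 and 4401 bp in the Ezh1 rescue. Ccl2 was the member with a peak in the Ezh2 rescue and none in the Ezh1 rescue.

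Peaks were not centred on the 5' end in every case. In the wild type of experiment 1, a peak covered the 5' end itself in 1 of 7 and 2 of 10 marked ligands and in 5 of 10 and 6 of 9 marked receptors. In the Ezh1 rescue it did so in 7 of 12 ligands and 9 of 11 receptors, and in the Ezh2 rescue in 4 of 11 ligands and 4 of 7 receptors. The median width of peaks at these promoters in the wild type of experiment 1 was 1031 and 1174 bp for ligands and 1193 and 1918 bp for receptors. Bases under peaks were split between both sides of the 5' end, with 48.3% and 38.5% on the gene side for ligands and 41.3% and 41.9% for receptors. These positions and widths were not computed over all genes. Whether they are particular to chemokine promoters was therefore not tested.

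Chemokine promoters were poor in CG dinucleotides. The median number of CG dinucleotides in the 300 bases around the 5' end was 4 in ligands and 3 in receptors, against 12 over all genes. At least 10 CG dinucleotides were found in 25.0% of ligands and 11.8% of receptors, against 54.7% of all genes. Members with a peak in both wild-type libraries of experiment 1 had a median of 5 in each class, and members without one had 4 in ligands and 3 in receptors. Over all genes the medians were 10 with and 12 without the peaks, so the medians of members with and without peaks both lay under those of genes in general. TATAAA, searched on both strands (TTTATA on the other strand), occurred in 33.3% of ligands and 17.6% of receptors, against 13.5% of all promoters of this length.

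**Figure D5:**
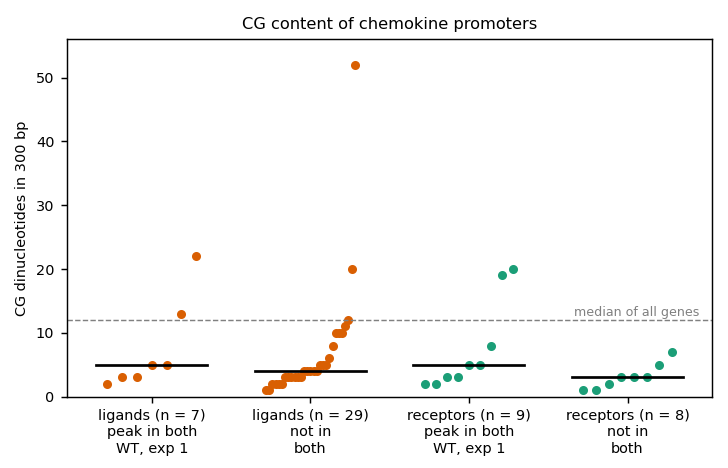
CG dinucleotides in the 300 bases around the 5' end (vertical axis, count) for ligands (orange) and receptors (green) with and without a peak in both wild-type libraries of experiment 1, with 1 point a gene, black bars at the medians (5, 4, 5 and 3) and a dashed line at the median of all genes (12). The point at 52 is Ccl25, whose annotated 5' end lies 110 bp from that of Elavl1.

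Among the other genes of chemokine biology, 29 of 32 listed symbols matched the annotation, and 7 of the 29 (24.1%) had a promoter peak in both wild-type libraries of experiment 1, against 20.7% of all genes. These were the atypical receptor Ccbp2, the chemerin receptor Cmklr1, the arrestin Arrb1 and the leukocyte signalling genes Pik3r5, Plcb2, Rac2 and Vav1. Ccbp2, which binds and degrades inflammatory CC chemokines, had 0 bp in both KO libraries, against 4389 and 5001 bp in the wild type. Rac2 had 0 bp in both KO libraries, against 3086 and 3266 bp in the wild type. Of the 7, 5 (71.4%) had no KO peak, against 92.3% of all genes so marked, the exceptions being Cmklr1 with 0 and 1907 bp and Vav1 with 0 and 538 bp. Of the 29, 18 had no peak in any library.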

How the data were processed

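H3K27me3 ChIP-seq peak lists of 10 libraries from 6 conditions were used, with conditions and replicate numbers from the sample labels. The authors aligned reads to mm9, discarded duplicates, reduced libraries to one read total, multiplied the KO and Ezh1 rescue by coefficients set from the ChIP yield, and called peaks against input for each sample. Tools in the submitters' notes are MACS2 2.0.10 for peaks, Bowtie 0.12.8 and Bowtie2 2.1.0 for alignment, HOMER 3.17 and SAMtools. The files deposited by the authors give where each peak starts and ends, with no count, score or height. Positions in experiment 2 lie on a 50-bp grid with a minimum width of 550 bp, against 150 bp in experiment 1.

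Duplicate lines were merged, mitochondrial peaks left out and positions written 1-based. Genes and sequence came from the NCBIM37 (mm9) genome with GENCODE M1, and all peak ends lay within its chromosomes. A symbol with several identifiers (Ccl25, 2) counted once. Members, lists and tests were chosen with earlier results of these data known. Values per library are given for the 15 members with the most wild-type coverage among those with a peak in both wild-type libraries of an experiment, for members with KO peaks in both libraries and for Cxcl12, Cxcr4, Cxcr7 and Ccl2. Other members named, and the choice of the Cxcl12 sequence, were picked after their values were seen. KO and wild type were compared by exact permutation of library totals. No test was made over genes. Values of 1 member and 1 marker gene are not reported here by name. Overlap code was checked on simulated intervals. Alternatives were other windows, start sites, peak widths and overlaps, and leaving out chromosome 5, gene copies or a replicate. Python 3.11.15, NumPy 2.4.6, pandas 2.3.3, SciPy 1.17.1 and matplotlib 3.10.9 were used.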

Additional observations from a re-analysis of the deposited data

How the results depend on the processing

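The ligand count in the wild type of experiment 1 was 11 with 5000 bp on either side and 4 with peaks of at least 1000 bp, against 7 as reported, while the receptor count was 9 and 8. The ligand minus receptor share was -22.4 points with 5000 bp on either side, against -33.5. In experiment 2, members with wild-type peaks numbered 6 with 5000 bp on either side, 1 with peaks of at least 1000 bp, 8 to 8 without either wild-type replicate and 13 in at least 1 library, an alternative chosen after seeing the data, against 3. The Ezh2 rescue marked 11 members within 1000 bp of the 5' end and 10 with peaks of at least 1000 bp, against 18. Without Ccl1, chosen after seeing the data, the ligand minus receptor coverage in percent of wild type was -3.76 points in the first KO library, against 3.55, and 13.3 in the second, against 43.6. The other 87 of 99 alternative values kept their sign and lay within 1.5 times of the count or 1 SD of the share reported. This SD, 10.1 points, was taken between the 2 wild-type libraries of experiment 1. Leaving out a replicate gives the values of those same libraries, so for the share it is no independent check. For the KO totals, where no alternative can reach a p under 0.33, the sign alone was compared, with differences in experiment 1 of -13033 bp within 1000 bp and -64050 bp within 5000 bp of the 5' end, and from -37396 to -32473 bp without a replicate. Experiment 2 gave -3827 and -12762 bp for these windows, -3005 bp with peaks of at least 1000 bp, and from -8486 to -6995 bp without a replicate.

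A replicate block, pairing libraries by number, gave the same differences of -34934 and -7741 bp with the smallest p it allows, 0.50. The labels do not say whether the numbers pair the libraries. Deviations of same-numbered libraries correlated at 0.0343 in experiment 1 and -0.0276 in experiment 2 over all genes. Neither value can decide whether libraries were prepared in pairs, as each rests on 2 libraries per group. In experiment 2, moreover, only 9 and 84 promoters of all genes had a peak in the KO libraries, against 1549 and 1779 in experiment 1. The planned stricter score threshold was not run, as the lists hold no scores.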

Other observations

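Within 50 kb on either side of the 5' end, 32 of 53 members had peaks in both wild-type libraries of experiment 1 (60.4%, against 58.2% of all genes), 21 ligands and 11 receptors, and 16 of them had no promoter peak in both. Median coverage of that window was 998.5 and 1690 bp in ligands and 10562 and 15383 bp in receptors, with no median over all genes to set beside them. In both KO libraries 31 members (58.5%, against 53.9% of all genes) had fewer bases there than in both wild-type libraries and 7 (13.2%, against 14.0%) had more, among them Ccl1, Ccr1, Ccr2, Ccr3, Ccr4 and Cxcr6. Ccr1, Ccr2 and Ccr3 lie close together on chromosome 9, and windows of neighbouring genes there partly overlap. So do the windows of Cxcr1 and Cxcr2, of Cx3cr1 and Ccr8, and of neighbouring ligands in clusters, so the same peaks can count for several members.

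Ccl20, the ligand of Ccr6, had no promoter peak, and its 50-kb window held 0 bp in both KO libraries of experiment 1, against 4870 and 6946 bp in the wild type. Cxcl2, Cxcl3, Cxcl5 and Cxcl15 had no peak within 50 kb in any of the 10 libraries.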
